A study of Mus musculus with 10 samples.

Results

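The actin isoform genes are the 6 rows of the deposited count table named Acta1, Actc1, Acta2, Actg2, Actb and Actg1, taken by symbol out of 56832 genes. The set was chosen with earlier results of these data known, Acta1 among them. Transcripts were counted in sorted heart muscle cells of 5 mice carrying the Sprr1a-GFP reporter, in which green fluorescent protein (GFP) is named for Sprr1a. All mice had a myocardial infarction at 12 weeks of age and were studied 5 days later, so every library comes from an injured heart and no uninjured heart was analysed here. The titles tag every mouse "Hetz", and the labels do not say what the tag or the control of the reporter is. Cardiomyocytes were released by Langendorff digestion, in which enzyme is perfused through the vessels of the heart, and were sorted by flow cytometry. Each mouse gave 1 GFP+ library, labelled border zone cardiomyocytes, and 1 GFP- library, labelled remote zone cardiomyocytes. The titles of the GFP+ libraries join a DAPI-negative and a DAPI-positive gate, while those of the GFP- libraries name a DAPI-negative gate alone. DAPI is a dye that enters cells with leaky membranes, so the effects of the GFP gate and of the DAPI gate cannot be told apart. The mouse identifiers form 2 series, 17C (mice 17C1 and 17C2) and 21A (mice 21A4, 21A5 and 21A7), whose titles are worded differently. Throughout, 5 values in a row follow the order 17C1, 17C2, 21A4, 21A5, 21A7.

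Actin is the protein of thin filaments in muscle and of the cytoskeleton in nearly all cells. Mammals have 6 actin genes, expressed by cell type. Actc1 (cardiac alpha-actin) and Acta1 (skeletal alpha-actin) build the thin filaments of striated muscle, and Acta1, abundant in adult skeletal muscle, is also known as a gene of the fetal heart that adult heart muscle uses again under load. Acta2 (vascular smooth muscle alpha-actin) is also the usual marker of myofibroblasts, and Actg2 is the smooth muscle gamma-actin of gut and bladder. Actb and Actg1 encode the cytoplasmic beta- and gamma-actins. Serum response factor drives many of these genes through a DNA element called the CArG box, and its cofactors MRTF-A and MRTF-B are held back by free actin monomers.

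The genes are close relatives, so how well reads tell them apart matters for shares. Their coding sequences, 1128 to 1134 bases long, were 81.9% to 88.7% identical in pairs, with Actb and Actg1 the closest. The first 30 coding bases of each show where they differ, with capitals marking bases unlike the aligned Actc1 sequence (GENCODE M21, GRCm38; the counts were made on GRCm39).
Actc1: atgtgtgacgacgaggagaccaccgctttg
Acta1: atgtgCgacgaAgaCgagaccaccgctCtT
Acta2: atgtgtgaAgaGgaAgaCaGcacAgcCCtg
Actg2: atgtgtgaAgaAgagaccaccgcCCtTgtg
Actb: atggaTgaCgaTaTcGcTgcGCtggtCGTC
Actg1: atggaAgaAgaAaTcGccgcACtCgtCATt
Over these bases Acta1 differed from Actc1 at 5 positions and Actb at 12. Of all 50-base stretches of each transcript, at most 2.57% (Actb) were also found in another of the 6 genes, and 0% of those of Actc1 and Actg2 were. Stretches shared with any other gene, pseudogenes included, were 14.2% for Actb and 56.7% for Actg1, against 2.22% for Acta1. How reads with several matches were counted is not given in the sources used here, so the counts of Actg1 and, less so, of Actb are uncertain in level. The table has 3 further rows with actin-like symbols, of which Actbl2 was at 0 in all libraries, Actg-ps1 had at most 9 counts and Actb-ps1 at most 16.

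Promoter sequence was at hand for 4 of the 6 genes (RefSeq, GRCm38.p6). In the 250 bases before the gene start, 3 of these 4 held a CArG box, searched by its consensus, which reads alike on both strands. The box is shown in capitals, with the bases around it, because serum response factor is known to bind such elements.
Actc1, chr2:114052903-114052932, minus strand: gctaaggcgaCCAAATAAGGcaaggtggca
Acta1, chr8:123894829-123894858, minus strand: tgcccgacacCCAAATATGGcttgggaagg
Actg1, chr11:120348566-120348595, minus strand: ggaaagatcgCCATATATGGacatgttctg
The boxes began 47, 73 and 90 bases before the gene start in Actc1, Acta1 and Actg1. Acta2 had no exact match to the consensus in that window, and variants of the consensus were not searched. Of 32851 RefSeq promoter windows of the same length, 482 (1.47%) held a CArG box. A match is a stretch of letters and not a measured binding site.

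Libraries held 12244373 to 38879965 counts, of which 9.20% to 91.2% fell on mitochondrially encoded genes, leaving 3417972 to 16918067 others. The 6 actins took 0.878% to 1.25% of these others in GFP- libraries and 0.989% to 2.08% in GFP+ libraries. Sprr1a, which names the reporter, had 1452 to 6903 counts in GFP+ and 10 to 406 in GFP- libraries, in the direction of the labels. The labelled cell type was present in every library, since all 10 cardiomyocyte markers were detected in all libraries. However, 3 libraries labelled GFP- cardiomyocytes, those of the 21A mice, stood apart by their fibroblast markers. The summed level of 9 such markers was 124, 278, 6266, 9957 and 11893 CPM (counts scaled to library size) in the GFP- libraries and 253, 314, 2000, 1627 and 5067 CPM in the GFP+ libraries. The summed level of the 10 cardiomyocyte markers was lowest, at 3861 CPM, in GFP- 21A7, and the other GFP- libraries held 18313 to 45278 CPM. Results are therefore also given by series, and the shares and ratios also without mouse 21A7.

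Each isoform's share of all actin counts shows the mix of actins in a library and does not depend on library scaling. Actc1 was the largest share in 9 of 10 libraries, and Actb was in the remaining one, GFP- 21A7. The striated pair Actc1 and Acta1 together made up 95.4%, 94.8%, 74.1%, 60.4% and 13.0% of actin counts in the GFP- libraries. In the GFP+ libraries they made up 92.5%, 95.1%, 93.6%, 95.4% and 53.2%. Thus the 17C mice had nearly the same striated share in both fractions, and each 21A mouse had a higher one in its GFP+ library. In bulk samples such as these, fewer cells of a type and less RNA per cell cannot be told apart. The counting error of a share was small beside these differences: the widest 95% Wilson interval among the 60 shares was ± 0.533 percentage points (Actc1, GFP+ 21A7). Reads carry no molecular identifiers, so intervals cover counting error only.

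**Figure D1:**
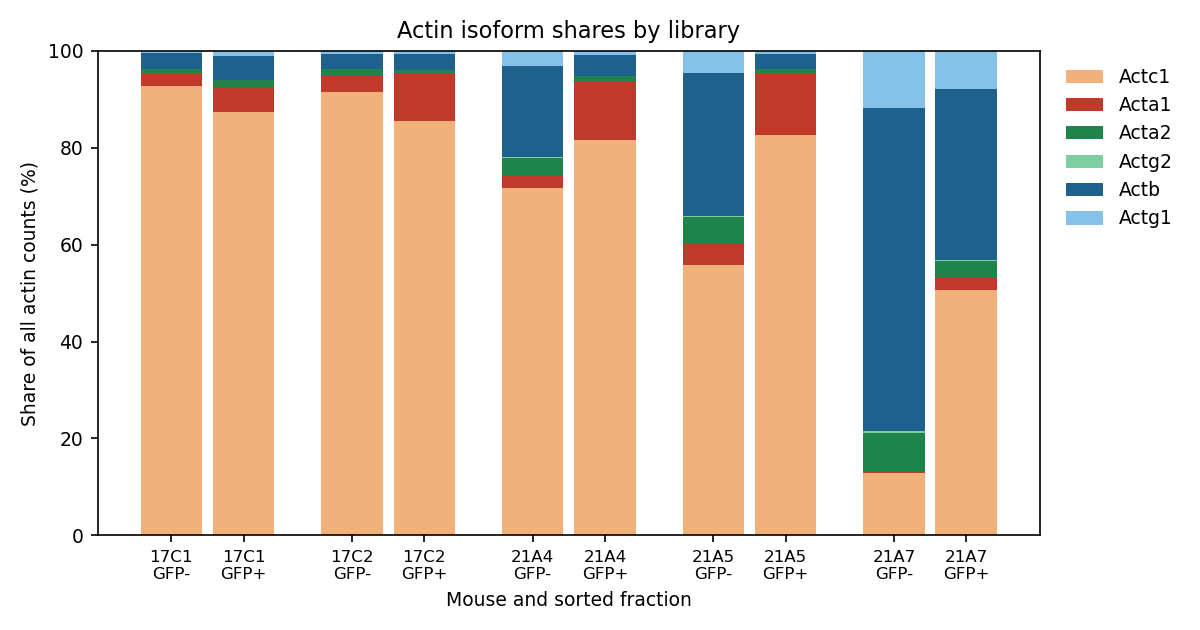
Stacked bars show each actin gene's share of all actin counts (%), for the GFP- and the GFP+ library of each of 5 mice. Acta1 (red) is a taller segment in the GFP+ bar of every mouse, the Actb segment (dark blue) reaches 66.7% in GFP- 21A7, and Actg2 is at most 0.378% and hardly visible.

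Acta1 was the isoform whose share was higher in the GFP+ library of 5 of 5 mice. Its counts were 2168, 2521, 4994, 7801 and 72 in GFP- libraries and 3452, 9001, 13594, 25848 and 858 in GFP+ libraries. As shares of actin counts these were 2.66%, 3.31%, 2.37%, 4.55% and 0.0517% in GFP- and 5.20%, 9.63%, 12.0%, 12.9% and 2.54% in GFP+ libraries. The GFP+ share was thus 1.95, 2.91, 5.05, 2.83 and 49.1 times the GFP- share of the same mouse, and the last of these rests on only 72 counts. The groups overlapped through 1 library, GFP+ 21A7, which lay below 3 of the GFP- libraries. The mean share was 8.45% ± 4.45 (SD, n = 5) in GFP+ and 2.59% ± 1.65 (SD, n = 5) in GFP-. That difference of 5.86 percentage points had p = 0.0397 in the two-sided exact permutation test, or 0.119 adjusted over the 9 shares and ratios compared. Exact sign flips within mice gave p = 0.063, the smallest that 5 pairs allow. Dividing counts by transcript length first gave a difference of 5.98 percentage points (exact permutation p = 0.0317).

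Actc1, the main adult cardiac actin, had counts of 75488, 69693, 151244, 95667 and 18070 in GFP- libraries and 57951, 79932, 92771, 165290 and 17110 in GFP+ libraries. Its share was 92.8%, 91.5%, 71.7%, 55.8% and 13.0% in GFP- and 87.3%, 85.5%, 81.7%, 82.5% and 50.6% in GFP+ libraries. It was thus lower in GFP+ in both 17C mice and higher in GFP+ in all 3 of the 21A mice. The mean share was 77.5% ± 15.2 (SD, n = 5) in GFP+ and 64.9% ± 32.8 (SD, n = 5) in GFP-, a difference smaller than either spread (exact permutation p = 0.532). Within the striated pair, Acta1 counts per 100 Actc1 counts were 2.87, 3.62, 3.30, 8.15 and 0.398 in GFP- libraries. In GFP+ libraries they were 5.96, 11.3, 14.7, 15.6 and 5.01. The ratio was higher in GFP+ in every mouse, by 1.92- to 12.5-fold, and the single GFP- library of 21A5 overlapped the GFP+ range. On the log2 scale the mean ratio was -3.40 ± 0.75 in GFP+ and -5.28 ± 1.61 in GFP- (SD, n = 5 each). The difference of 1.88 had an exact permutation p of 0.0238 (0.119 adjusted over the 9 comparisons) and an exact sign-flip p of 0.063. It was 1.35 in the 17C mice and 2.24 in the 21A mice, and 1.44 without mouse 21A7 (exact permutation p = 0.0571). The Acta1 share differed by 6.70 percentage points without that mouse.

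**Figure D2:**
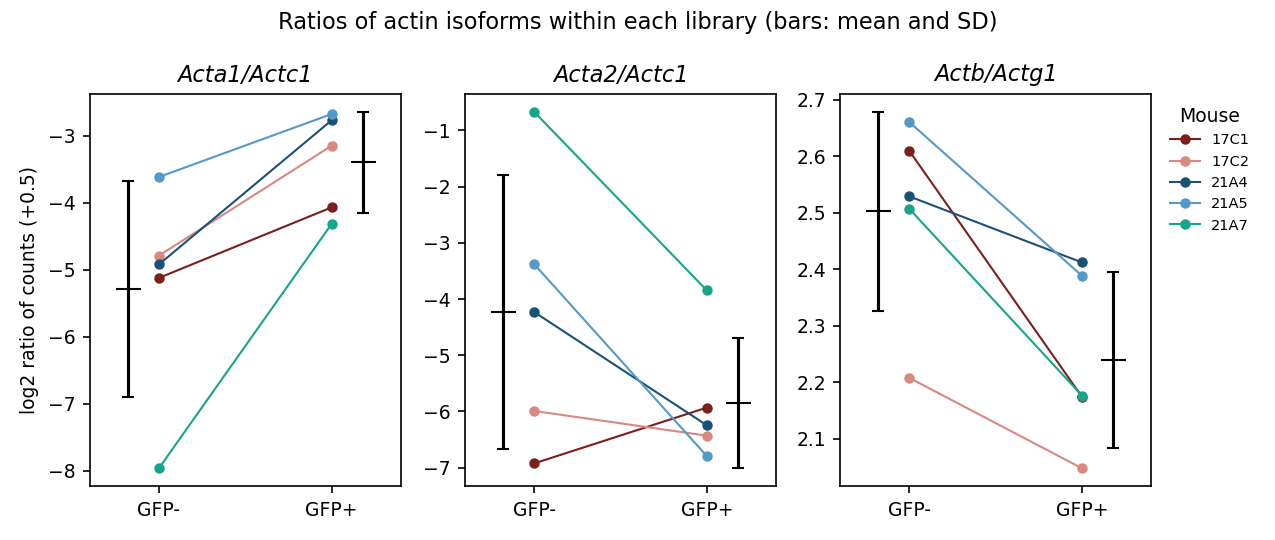
Points give the log2 ratio of the counts (+0.5) of 2 actin genes in each library, joined within a mouse, and black bars give the mean and SD of 5 libraries. Acta1/Actc1 is higher and Actb/Actg1 lower in the GFP+ library of all 5 mice, while Acta2/Actc1 is higher in GFP+ in 17C1 alone.

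The smooth muscle actins were small shares. Acta2 counts were 621, 1095, 8057, 9200 and 11358 in GFP- libraries and 949, 926, 1222, 1490 and 1189 in GFP+ libraries. Its share was 0.763%, 1.44%, 3.82%, 5.37% and 8.16% in GFP- and 1.43%, 0.990%, 1.08%, 0.744% and 3.52% in GFP+ libraries. The high values were those of the GFP- libraries of the 21A mice, and the other GFP- libraries lay within the GFP+ range. The means of 1.55% ± 1.13 in GFP+ and 3.91% ± 3.01 in GFP- (SD, n = 5 each) were not separated by the exact permutation test (p = 0.119). Relative to Actc1, Acta2 had 0.823, 1.57, 5.33, 9.62 and 62.9 counts per 100 in GFP- and 1.64, 1.16, 1.32, 0.901 and 6.95 in GFP+ libraries. The log2 ratio differed by -1.61 (exact permutation p = 0.270), and by -1.22 without mouse 21A7. Actg2 was barely detected, with 2, 6, 276, 291 and 526 counts in GFP- and 5, 3, 54, 46 and 25 counts in GFP+ libraries. Its mean share was 0.0310% ± 0.0296 in GFP+ and 0.138% ± 0.153 in GFP- (SD, n = 5 each, exact permutation p = 0.159).

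The other contractile smooth muscle genes varied among themselves. In the GFP+ libraries of the 17C mice, Acta2 had 949 and 926 counts while Myh11 (smooth muscle myosin heavy chain), Tagln (transgelin) and Lmod1 (leiomodin 1) were all at 0. Cnn1 (calponin 1), of the same marker list, had 337 and 200 counts there, and the 10 markers summed to 116 and 186 CPM. Tagln had at most 22 counts in any library. Myh11, also of that list, had counts of 17, 43, 1002, 1338 and 472 in GFP- libraries, of which the last 3 are those with high Acta2. The summed level of 10 smooth muscle markers was 97.9 to 199 CPM in GFP- and 116 to 302 CPM in GFP+ libraries. Synpo2 was the largest part of this sum in every library except GFP- 21A7, with 186 of 302 CPM in GFP+ 21A5. By gene, Cnn1 was higher in GFP+ in 5 of 5 mice, Synpo2 in 4, and Myocd and Npnt in 3. Myh11 and Mylk were higher in 1 mouse, and Smtn, Tagln, Lmod1 and Ntrk3 in 0. Of all tested genes, 9.14% were higher in all 5 mice and 8.49% lower. The summed level of 8 pericyte markers was 118 to 414 CPM in GFP- and 115 to 179 CPM in GFP+ libraries. The part of these cell types in the Acta2 values was not tested.

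The cytoplasmic actins varied widely between mice. Actb counts were 2663, 2367, 39494, 50413 and 92903 in GFP- libraries and 3269, 2937, 5021, 6405 and 11966 in GFP+ libraries. Its share was 3.27%, 3.11%, 18.7%, 29.4% and 66.7% in GFP- and 4.93%, 3.14%, 4.42%, 3.20% and 35.4% in GFP+ libraries. The GFP- libraries of the 21A mice and the GFP+ library of 21A7 were high, and the other 6 libraries lay between 3.11% and 4.93%. Actg1 counts were 436, 512, 6843, 7974 and 16345 in GFP- and 724, 710, 943, 1223 and 2647 in GFP+ libraries, with shares of 0.536%, 0.672%, 3.24%, 4.65% and 11.7% and of 1.09%, 0.759%, 0.830%, 0.611% and 7.83%. The same 4 libraries were high for both genes. Mean shares of Actb were 10.2% ± 14.1 in GFP+ and 24.2% ± 26.2 in GFP- (exact permutation p = 0.381, n = 5 each). Those of Actg1 were 2.22% ± 3.14 and 4.17% ± 4.58 (exact permutation p = 0.556, n = 5 each). Neither difference exceeded the spread within a group. Without mouse 21A7 the difference in mean share was -9.71 percentage points in place of -14.0 for Actb and -1.45 in place of -1.94 for Actg1. It was 6.31 in place of 12.6 for Actc1, -1.79 in place of -2.36 for Acta2 and -0.0574 in place of -0.107 for Actg2.

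The 4 libraries with a high cytoplasmic share were also the 4 with the highest sums of fibroblast, activated fibroblast, macrophage and endothelial markers. Actb and Actg1 together made up 22.0%, 34.1% and 78.4% of actin counts in the GFP- libraries of 21A4, 21A5 and 21A7, where the fibroblast sum was 6266, 9957 and 11893 CPM. They made up 43.2% in GFP+ 21A7, at 5067 CPM. In the other 6 libraries they made up 3.78% to 6.02%, at 124 to 2000 CPM. Activated fibroblast markers (8 genes) ran from 49.0 to 4859 CPM in GFP- and from 96.7 to 2011 CPM in GFP+ libraries, and macrophage markers (10 genes) from 24.0 to 706 CPM and from 23.5 to 319 CPM. Endothelial markers (9 genes) ran from 65.4 to 594 CPM in GFP- and from 38.5 to 293 CPM in GFP+ libraries. Of the 9 fibroblast markers only Tcf21 and Dpt were at 0 in any library, Tcf21 in both libraries of 17C2 and Dpt in GFP+ 17C1. Fibroblasts and other non-muscle cells express Actb and Actg1, and their part in these shares was not tested.

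**Figure D3:**
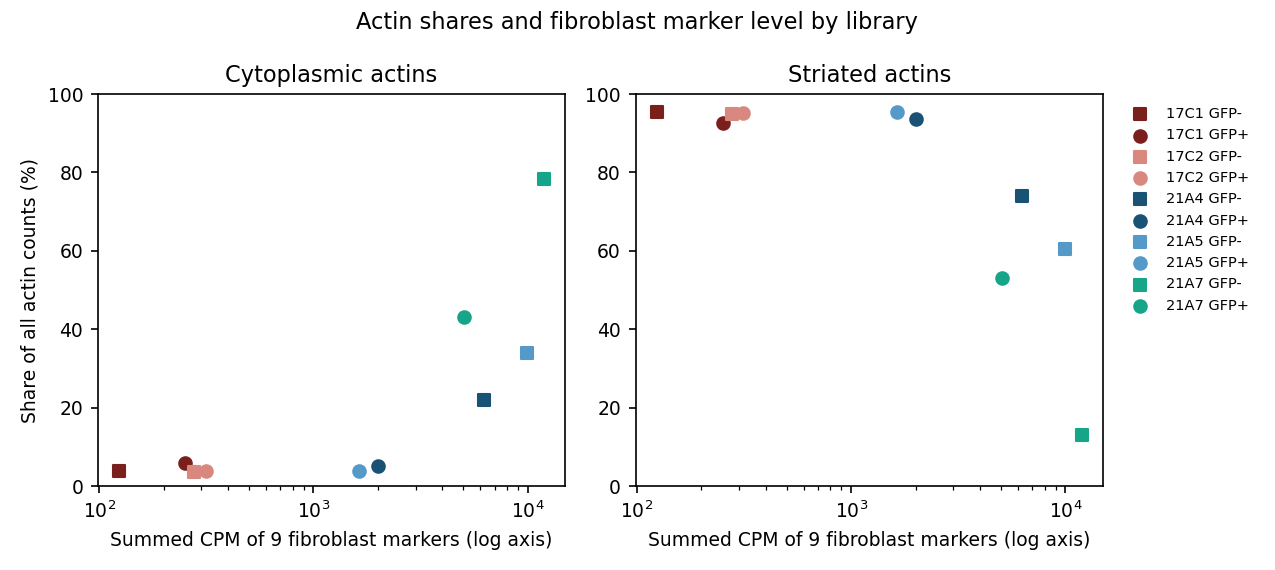
Each point is 1 library; the x axis is the summed CPM of 9 fibroblast markers (log axis) and the y axis the share of all actin counts (%) of Actb plus Actg1 (left) or Acta1 plus Actc1 (right). Squares are GFP- and circles GFP+ libraries, coloured by mouse, and the 4 libraries farthest right are those with a cytoplasmic share of 22.0% to 78.4%.

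The balance between the cytoplasmic actins moved less than their level. Actb counts per 100 Actg1 counts were 611, 462, 577, 632 and 568 in GFP- and 452, 414, 532, 524 and 452 in GFP+ libraries. The ratio was lower in the GFP+ library of every mouse, though the groups overlapped. Its log2 mean was 2.24 ± 0.16 in GFP+ and 2.50 ± 0.18 in GFP- (SD, n = 5 each). The difference of -0.26 had an exact permutation p of 0.0397 (0.119 adjusted over the 9 comparisons) and an exact sign-flip p of 0.063. It was -0.30 in the 17C mice, -0.24 in the 21A mice and -0.25 without mouse 21A7. Because 56.7% of the 50-base stretches of Actg1 occur in other genes, this ratio depends on how such reads were counted. None of the 6 shares or 3 ratios passed the threshold of 0.05 after adjustment, and at unadjusted p under 0.05 the exact permutation test had the Acta1 share and the Acta1/Actc1 and Actb/Actg1 ratios.

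Levels between genes were compared as CPM per kilobase of transcript. In GFP+ libraries this level was 4166 ± 1676 for Actc1, 496 ± 324 for Acta1, 271 ± 222 for Actb, 57.4 ± 49.0 for Actg1, 47.5 ± 10.5 for Acta2 and 1.48 ± 1.23 for Actg2 (SD, n = 5). Acta1 and Actb overlapped in range, with Acta1 above Actb in 4 of 5 libraries, and Actg1 lay above Acta2 in only 1 of 5. In GFP- libraries the order of the mean level was Actc1 (2082 ± 1375), Actb (406 ± 335), Acta1 (82.6 ± 53.3), Actg1 (68.5 ± 56.3), Acta2 (67.4 ± 36.4) and Actg2 (3.27 ± 3.02). There all neighbours overlapped except Acta2 and Actg2. By mean level, Acta1 thus came just after Actc1 in the GFP+ order and after both Actc1 and Actb in the GFP- order. Within libraries, it was in place 2 in both fractions of 17C1 and 17C2. In 21A4, 21A5 and 21A7 it was in places 5, 3 and 6 in GFP- and 2, 2 and 4 in GFP+ libraries. In GFP- 21A7 its level was 0.900 CPM per kilobase, the lowest of the 6.

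**Figure D4:**
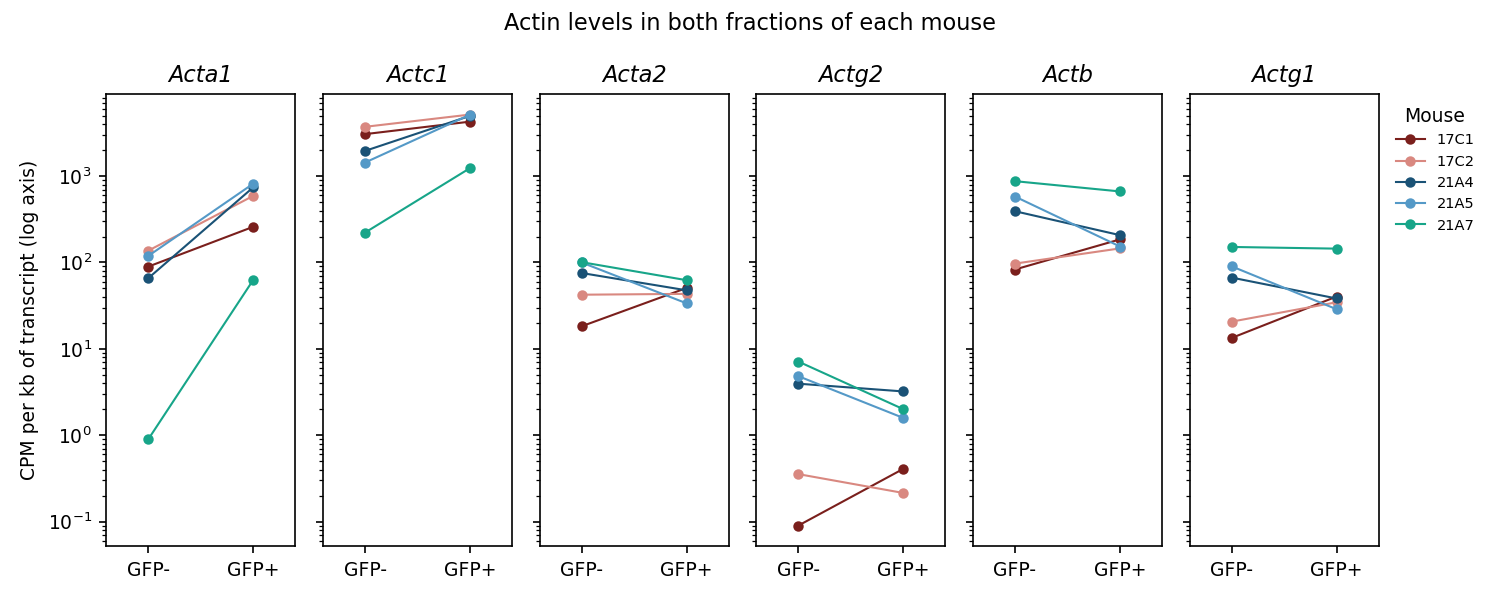
Each panel shows 1 actin gene, with its level in CPM per kilobase of transcript (shared log axis) in the GFP- and the GFP+ library of each mouse, joined by a line. Acta1 and Actc1 lines go up in all 5 mice, and the lines of Acta2, Actb and Actg1 go up in the 17C mice and down in the 21A mice.

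The fit across all 12115 tested genes with edgeR (quasi-likelihood test, Benjamini-Hochberg adjusted p under 0.05) asked whether each gene differed between fractions. It called 10 genes (0.0825%), all higher in GFP+, and 0 of the 6 actins. With the mouse as a block it called 104 genes (0.858%), and again 0 of the 6. At an unadjusted p under 0.05, Acta1 alone passed in the unpaired fit, as did 991 of all 12115 genes. Acta1 and Actc1 passed in the paired fit, as did 1858 of all genes. DESeq2 (1.69% of genes called) and limma voom (2.77%) called 0 of the 6 as well. Acta1 and Actc1 were higher in GFP+ in 5 of 5 mice, as were 9.14% of all tested genes, and 0 of the 6 were lower in all 5, as were 8.49%. No actin had GFP+ levels wholly above or below its GFP- levels, which 1.54% and 0.916% of genes had.

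In scaled levels, Acta1 was at 130, 198, 95.3, 173 and 1.30 CPM in GFP- and at 375, 857, 1078, 1187 and 91.6 CPM in GFP+ libraries. All GFP+ libraries except that of 21A7 lay above all GFP- libraries. Its log2 fold change was 2.59 ± 0.97 (SE) with an edgeR adjusted p of 0.521, and 3.08 ± 0.65 (SE) with an adjusted p of 0.0776 in the paired fit. Without mouse 21A7 the unpaired value was 2.55 and passed (edgeR adjusted p = 0.0424), and without mouse 17C1 the paired value was 3.52 and passed (edgeR adjusted p = 0.0454). These were the only passes among 15 unpaired and 5 paired fits with a mouse or library left out. In the others the edgeR adjusted p ran up to 0.961 unpaired and 0.334 paired. Set against the median gene, Acta1 was higher by 2.66 with TMM scaling, by 3.29 with library size alone and by 3.26 when scaled to sarcomere genes other than actin. Library size alone moved the all-gene median from -0.07 to -1.24 and the sarcomere scale moved it to -0.66.

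Actc1 was at 4516, 5487, 2886, 2116 and 327 CPM in GFP- and at 6302, 7611, 7357, 7589 and 1826 CPM in GFP+ libraries. Except for 21A7, the GFP+ libraries lay above the GFP- libraries. Its log2 fold change was 1.00 ± 0.71 (SE, edgeR adjusted p = 0.739), and 1.32 ± 0.51 in the paired fit (adjusted p = 0.270). The summed level of 10 cardiomyocyte markers did not follow this pattern in the 17C mice. There it was 38126 and 45278 CPM in GFP- and 14903 and 20022 CPM in GFP+ libraries. Of these markers, Ttn was higher in GFP+ in 17C1 (6567 against 3170 CPM) and Mybpc3 in 17C2 (1759 against 1459 CPM). The rest were lower in GFP+ in both 17C mice. In the 21A mice the sum was 30671, 18313 and 3861 CPM in GFP- and 37241, 35805 and 9620 CPM in GFP+ libraries. Over all mice the log2 fold changes of the smooth muscle and cytoplasmic actins were -0.50 ± 0.43 (Acta2), -1.14 ± 0.98 (Actg2), -0.58 ± 0.70 (Actb) and -0.26 ± 0.67 (Actg1), each ± SE. Their edgeR adjusted p-values were 0.785, 0.785, 0.851 and 0.936.

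The series differed in direction for 3 of the genes. In the 17C mice alone edgeR called 1059 of 11107 genes (9.53%; 4.61% higher and 4.92% lower in GFP+), and 2 of the 5 actins that could be tested there rose in GFP+: Acta1 by 1.92 ± 0.39 (SE, adjusted p = 0.0189) and Actg1 by 1.15 ± 0.27 (adjusted p = 0.0324). Actb was at 0.89 ± 0.24 (edgeR adjusted p = 0.0507), Acta2 at 0.65 (0.306) and Actc1 at 0.49 (0.196), and Actg2 had too few counts to be tested. With the mouse as a block in these 2 mice (13.6% of genes called), Acta1, Actb and Actg1 passed. In the 21A mice alone the unpaired fit called 0 of 13221 genes, with 1621 at an unadjusted p under 0.05. Its log2 fold changes were 3.15 (Acta1), 1.67 (Actc1), -0.93 (Acta2), -1.21 (Actg2), -0.84 (Actb) and -0.53 (Actg1). With the mouse as a block in these 3 mice (6.72% of genes called), Acta1 alone passed, at 4.05 (edgeR adjusted p = 0.00938). These blocked fits within a series were chosen after the data were seen.

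**Figure D5:**
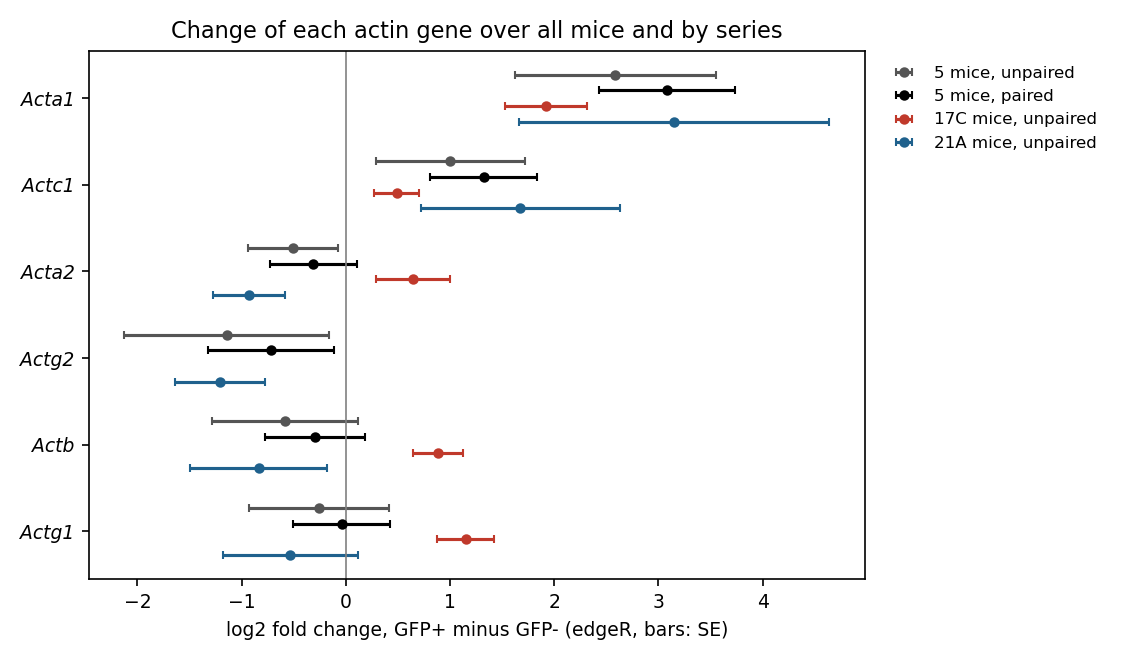
Points give the log2 fold change of each actin gene (GFP+ minus GFP-, edgeR) and bars its SE, over all 5 mice unpaired and paired and in each series alone. Acta1 and Actc1 lie right of 0 in every fit, while Acta2, Actb and Actg1 lie right of 0 in the 17C mice and left of 0 in the 21A mice.

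The difference between the series was itself tested as an interaction. In the unpaired fit 0 genes passed, and the values for the actins (21A minus 17C, log2) were 1.22 for Acta1, 1.18 for Actc1, -1.58 for Acta2, -1.75 for Actg2, -1.73 for Actb and -1.68 for Actg1. With the mouse as a block, 923 genes (7.62%) passed, among them 1 actin: Actg1, at -2.01 (edgeR adjusted p = 0.0412). Actb was at -1.95 (adjusted p = 0.0512), Acta2 at -1.73 (0.0619), Actg2 at -1.85 (0.368), Acta1 at 2.21 (0.129) and Actc1 at 1.41 (0.173). The fibroblast sum was 2000 CPM or less in the GFP+ and 6266 CPM or more in the GFP- libraries of 21A4 and 21A5, and 314 CPM or less in both fractions of the 17C mice. Its part in the difference between the series was not tested.

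The machinery around actin was read from lists, of which the unpaired edgeR fit called 0 genes in each. For folding and maturation of new actin (CCT chaperonin, prefoldin and the histidine methyltransferase Setd3), 17 of 18 genes were tested. Of these 3 had an unadjusted p under 0.05 (991 of all 12115 genes did), DESeq2 called 1 and limma voom 2. The median log2 fold change was 0.40, against -0.07 over all genes, and 9 of 17 were higher in GFP+ in all 5 mice, as were 9.14% of all genes. The chaperonin subunits Cct8 (0.95 ± 0.27, SE, edgeR adjusted p = 0.320) and Cct3 (0.93 ± 0.31, adjusted p = 0.451) did not pass, though both passed in the 17C mice alone (adjusted p = 0.0202 and 0.0174).

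Of the serum response factor list (the factor, its cofactors and actin sensors) 14 of 15 genes were tested, with a median of -0.31. One gene, Fhl1, which encodes a LIM protein of the sarcomere, passed with the mouse as a block: it rose by 2.51 ± 0.26 (SE, edgeR adjusted p = 0.0201), from 19.8 ± 7.75 to 124 ± 59.7 CPM (SD, n = 5). It was the only gene of the list with an unadjusted p under 0.05 in the unpaired fit (2.65, adjusted p = 0.0996), and DESeq2 and limma voom each called 1. Ablim3 (0.87, edgeR adjusted p = 0.675) did not pass. Of 18 genes for monomer binding and turnover, all tested, 0 passed with the block and 8 had an unadjusted p under 0.05 there, as did 1858 of all 12115 genes. In the unpaired fit 3 did, and DESeq2 and limma voom called 2 each. The median was 0.13. The filament-severing proteins Cfl2, the muscle cofilin (1.10 ± 0.23 paired, edgeR adjusted p = 0.0762), and Dstn, destrin (0.88 ± 0.22 paired, adjusted p = 0.122), were higher in GFP+ in 5 of 5 mice without passing.

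Of 25 partners of the sarcomeric thin filament, 21 were tested, with a median of 0.26. With the block, 2 rose and 0 fell, and both are troponins of fast skeletal muscle. Tnnt3 rose by 6.64 ± 0.88 (SE, edgeR adjusted p = 0.0251), from 0.608 ± 1.13 to 20.4 ± 11.2 CPM (SD, n = 5). Tnni2 rose by 4.11 ± 0.63 (adjusted p = 0.0373), from 0.944 ± 1.05 to 11.3 ± 6.75 CPM. In the unpaired fit both had an unadjusted p under 0.05 and neither passed (adjusted p = 0.184 and 0.125), while DESeq2 and limma voom called 2 genes of the list each. The cardiac troponin Tnnc1 was at 0.29 ± 0.68 (edgeR adjusted p = 0.924) and the capping protein gene Capza2 at 0.40 ± 0.28 (adjusted p = 0.738). Of 26 partners of cytoplasmic actin filaments, 25 were tested, with a median of -0.09. One passed with the block: Enah, which encodes the filament elongation factor Mena, rose by 1.78 ± 0.31 (edgeR adjusted p = 0.0449), from 72.1 ± 34.3 to 248 ± 133 CPM. It was at 1.79 in the unpaired fit (adjusted p = 0.294), where 1 gene of the list had an unadjusted p under 0.05 and DESeq2 and limma voom called 1 each. The bundling protein gene Fscn1 (-1.11 paired, edgeR adjusted p = 0.184) and the focal adhesion gene Zyx (0.93 paired, adjusted p = 0.194) did not pass. In the 17C mice alone, 8 of these 25 partners rose and 0 fell, beside 7 rising and 1 falling of the 18 turnover genes. The thin filament partners had 4 rising and 3 falling of 21, the serum response factor list 2 and 2 of 13, the folding list 2 and 0 of 17, and the 16 adult sarcomere genes other than actin 0 and 8. Over all genes in that fit, 4.61% rose and 4.92% fell.

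The genes whose log2 CPM followed each actin most closely over the 10 libraries were named as a description, by Pearson's r among the 4697 genes whose mean level reached 10 CPM. The points share the mice, the sort and the scaling, so r here also reflects the mix of cells. Acta1 was followed by Synpo2l (0.979) and Sorbs2 (0.975), and Actc1 by Rrad (0.993), Pacsin3 (0.992) and Clip4 (0.989). For Acta2 the closest were Mbtps1 (0.951), Mxra7 (0.950) and Antxr1 (0.950). For Actg2 (compared with 4698 genes) they were the matrix metalloproteinase gene Mmp2 (0.983), Nipbl (0.978) and the matrix gene Tnc (0.977). Actb was followed by Igfbp4 (0.990), Cnn3 (0.990) and Ptma (0.988). Actg1 was followed by Actb itself (0.985), Tagln2 (0.984) and Ptprj (0.981). The nearest genes of Actb and Actg1 thus included the other cytoplasmic actin only for Actg1.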

How the data were processed

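Total RNA of each sorted fraction was amplified with SMARTer chemistry and made into Nextera XT libraries, which do not mark strand, per the labels' protocols. The authors deposited 1 table of raw counts (whole reads per gene, 10 libraries), with no normalization. Named in the submitters' processing notes are featureCounts, Subread 2.0.1, STAR 2.7.9a, fastp 0.23.1 and the build GRCm39. Which annotation, which strand setting and which treatment of reads with several matches were used is not given in the sources used here. No pair of libraries was identical (0 pairs).

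Shares and log2 ratios (0.5 added to each count) were compared with two-sided exact tests: permutation of 10 libraries (252 regroupings, smallest p 0.00794) and sign flips within mice (32, smallest p 0.063), in SciPy 1.17.1. Counts were fitted over all genes in R 4.3.3 by edgeR 4.0.16 (TMM, quasi-likelihood, filterByExpr, 12115 genes, Benjamini-Hochberg), first unpaired and then with a block for each mouse. CPM rests on library sizes scaled by TMM, with factors from 0.241 (GFP+ 21A7) to 3.31 (GFP- 21A7). SE is the log2 fold change over the root of F. Alternatives were DESeq2 1.42.0, limma 3.58.1 voom with quality weights, other scalings (DESeq2 size factors, library size, sarcomere genes, mitochondrial genes removed), other low-count filters, the series as covariate or alone, and mice or libraries left out. The edgeR fits, unpaired and with the mouse block, were tried on simulated counts. The exact tests were checked on a made-up set of values. DESeq2, limma voom and the interaction fits were not tried in this way.

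Same-mouse libraries are pairs because titles carry the same animal identifier. Their deviations from the group means gave a correlation of 0.637 for 21A7, 0.397 for 17C2, 0.292 for 17C1, 0.161 for 21A4 and 0.0741 for 21A5. Separate mice are the replicates. Transcript lengths and coding sequences came from GENCODE M21 and promoters from RefSeq, both of the earlier build GRCm38, and were joined by symbol. Actin genes, pathway lists and marker lists were chosen with earlier results of these data known, Acta1 among them. Named from each pathway list were at most 4 that passed in either fit, by adjusted p, and at most 2 that did not; for each actin, the 3 genes with the highest r. The results of 2 genes that this rule names are not reported here. Actmap, a gene of the folding list, found no row in the table. Neutrophil markers summed to at most 11.5 CPM, lymphocyte markers to at most 0.317 CPM and red cell and platelet markers to at most 107 CPM.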

Additional observations from a re-analysis of the deposited data

Results flagged for a closer look

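Of 30 groups of 5 libraries examined for a value far from the others, 7 had one, and all 7 came from the GFP+ library of mouse 21A7. The rule flags about 1 in 20 single groups by chance. The groups reuse the same 10 libraries and the shares of a library depend on each other, so that rate cannot be set against the 7. This library had the lowest Actc1 share (50.6%) and level (1826 CPM) of the GFP+ libraries. It had the highest shares of Acta2 (3.52%), Actb (35.4%) and Actg1 (7.83%) and the highest levels of Actb (1277 CPM) and Actg1 (282 CPM). It also had the highest mitochondrial share of all libraries, 91.2% of counts, and 3417972 counts outside mitochondrial genes, the fewest of all. Among GFP+ libraries its sums of fibroblast (5067 CPM) and mesothelial markers (296 CPM) were highest and its sum of cardiomyocyte markers (9620 CPM) was lowest. The part of these in the actin values was not tested. Without mouse 21A7, the mean Acta1 share differed by 6.70 percentage points in place of 5.86, and the log2 Acta1/Actc1 ratio by 1.44 in place of 1.88.

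The change of Actg1 differed between the series by -2.01 (21A minus 17C, log2) in the edgeR interaction with the mouse as a block (adjusted p = 0.0412). Opposite directions between the series were also seen in 3 shares, for which the difference was not tested. The Actc1 share was lower in GFP+ in both 17C mice (differences of -5.99 and -5.42 percentage points, mean -5.70) and higher in all 3 of the 21A mice (mean 24.8). The mean difference of the Actb share was 0.844 for the 17C series and -23.9 for the 21A series. That of the Actg1 share was 0.321 and -3.45.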

How the results depend on the processing

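Of 346 recomputed values, 292 were labelled the same as the main result. For most this meant the same direction and the same side of the threshold. For the number of genes called it meant a number close to the main one. Shares and ratios in 1 series alone had no threshold, and had to keep their direction and shift by less than the SD of the differences within mice. The number of genes called, 10 unpaired, was 104 with the replicate block, 205 with DESeq2, 336 with limma voom, 635 with library size alone, 0 with the sarcomere scale (368 at unadjusted p under 0.05), 38 without a filter, 19 with the stricter filter, 97 with series as covariate, 1059 in the 17C mice and 0 in the 21A mice, and 0 to 58 with a mouse or library left out. The paired count of 104 became 1510 in the 17C mice, 889 in the 21A mice, 33 with library size alone, 0 with the sarcomere scale and 0 to 173 with a mouse left out. Leaving out 17C2 gave 0, 21A4 gave 1, 21A5 gave 6 and 17C1 gave 173.

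Acta1 passed in the 17C mice (1.92 unpaired, 1.83 paired) and in the paired 21A fit (4.05), and ranged from 2.25 to 2.87 unpaired and from 2.48 to 3.52 paired with a mouse or library left out. Of these left-out fits, 1 of 15 unpaired and 1 of 5 paired passed. In the 17C mice the direction turned for Acta2 (0.65 unpaired, 0.76 paired), Actb (0.89, 0.88) and Actg1 (1.15, 1.18), for the log2 Acta2/Actc1 ratio (0.28) and for the shares of Actc1 (-5.70), Acta2 (0.110), Actg2 (0.000206), Actb (0.844) and Actg1 (0.321 percentage points). Actg1 also turned with series as covariate (0.12). With a mouse or library left out it ranged from -0.94 to 0.24 unpaired and from -0.44 to 0.34 paired, and Actb paired from -0.66 to 0.084. The block brought the Actg1 interaction (-2.01) past the threshold and changed no other actin call over all 5 mice. The cause of these changes was not tested. With 5 pairs, sign flips cannot go below 0.063. Actg2 had only 2 to 6 counts in the libraries of the 17C mice. Under the stricter filter and in the 17C mice alone, Actg2 gave no value.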

Other observations

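The summed level of mesothelial markers, which the comparisons of the actins do not use, was higher in GFP+ in 5 of 5 mice. By gene, 5 of the 7 were higher in all 5 mice, as were 9.14% of all tested genes. Bnc1 was higher in 4 mice and Wt1 in 3. The sum of 7 such markers was 0.718, 13.1, 32.7, 23.0 and 161 CPM in GFP- libraries and 83.8, 120, 88.7, 63.6 and 296 CPM in GFP+ libraries. In the unpaired edgeR fit 0 of these 7 passed, with 0 at an unadjusted p under 0.05. With the mouse as a block 0 passed and 5 had an unadjusted p under 0.05, as did 1858 of all 12115 genes, and DESeq2 and limma voom called 0. In the 17C mice alone, 4 of the 7 rose, as did 4.61% of all genes in that fit. Among the smooth muscle markers, Cnn1 (calponin 1) had 8, 3, 160, 239 and 241 counts in GFP- and 337, 200, 301, 1158 and 179 counts in GFP+ libraries, and was singled out after its values were seen. In scaled levels it was at 0.479, 0.236, 3.05, 5.29 and 4.36 CPM in GFP- and at 36.6, 19.0, 23.9, 53.2 and 19.1 CPM in GFP+ libraries. It was higher in 5 of 5 mice with no overlap (1.54% of all genes had GFP+ levels wholly above). Its log2 fold change was 3.47 ± 0.72 (SE, edgeR adjusted p = 0.110), and with the mouse as a block it rose by 3.85 ± 0.64 (adjusted p = 0.0426). DESeq2 (adjusted p = 0.000195) and limma voom (0.00262) called it too. It was present in both 17C mice, in whose GFP+ libraries Myh11, Tagln and Lmod1 were at 0.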
